A study of Mus musculus with 6 samples.

Results

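The kinase Cdk1, its cyclin B partners and the enzymes that set Cdk1 on or off were examined in single mature oocytes lacking Ago2 and in wild-type oocytes at the germinal vesicle (GV) stage. The genes were Cdk1, the cyclins Ccnb1, Ccnb2 and Ccnb3, the phosphatases Cdc25a, Cdc25b and Cdc25c, and the kinases Wee1, Wee2 and Pkmyt1. They were found by their symbols in the annotation of the array, where a probe counted only if it carried a single symbol. Of the 10 genes, 9 had such a probe, and Ccnb3 had 2 of them, which gave 10 of the 33012 probes on the array and 9 of the 13840 genes it names. Ccnb1 had no probe of its own in the annotation used and is not analysed here.

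Cdk1 bound to cyclin B is the kinase that drives a cell into M phase, historically called maturation-promoting factor. A mouse oocyte is held at the GV stage while Wee2 (Wee1B, the oocyte form of the Wee1 kinase) and Pkmyt1 (Myt1) keep Cdk1 phosphorylated on its inhibitory residues, and it resumes meiosis when Cdc25 phosphatases remove these phosphates. In mouse oocytes Cdc25b is the phosphatase known to be needed for this step, and cyclin B2 can stand in for cyclin B1.

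The series held 3 Ago2-deficient and 3 wild-type oocytes, each hybridized to an array of its own. The Ago2-deficient cells were labelled mature oocytes and came from [Ago2F/F, Zp3-Cre] females, in which Cre driven by the Zp3 promoter deletes the floxed Ago2 allele in the growing oocyte, and the study found that this deletion fails in a few oocytes. The wild-type cells were labelled GV oocytes, although their label also says that they were taken from the oviducts of adult females, a site from which the study collected ovulated oocytes. The groups therefore differed in genotype and in labelled stage, and these cannot be told apart here, nor do the labels say whether the oocytes of a group came from separate females.

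Promoter sequence is shown for Cdc25a, which was called higher, and for Cdc25b and Wee2, which were called lower, and that of Cdc25c is not shown. Each line holds 250 bases before a start site that a RefSeq promoter table gives for the gene in build GRCm38.p6, on the plus strand, which is the strand of all 3 genes. These windows lie inside or overlap the RefSeq span of their gene, which begins at 109875518 for Cdc25a, 131186436 for Cdc25b and 40435246 for Wee2, so other transcripts may start elsewhere. Capitals mark the CCAAT box and the GC box GGGCGG, read on both strands. The windows lie at chr9:109875329-109875578 for Cdc25a, chr2:131186698-131186947 for Cdc25b and chr6:40442613-40442862 for Wee2.
Cdc25a: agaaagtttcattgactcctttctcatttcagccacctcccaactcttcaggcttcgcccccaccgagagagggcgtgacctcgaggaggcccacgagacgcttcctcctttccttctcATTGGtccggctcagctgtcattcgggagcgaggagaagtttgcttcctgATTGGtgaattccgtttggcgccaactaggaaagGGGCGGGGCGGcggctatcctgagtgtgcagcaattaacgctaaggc
Cdc25b: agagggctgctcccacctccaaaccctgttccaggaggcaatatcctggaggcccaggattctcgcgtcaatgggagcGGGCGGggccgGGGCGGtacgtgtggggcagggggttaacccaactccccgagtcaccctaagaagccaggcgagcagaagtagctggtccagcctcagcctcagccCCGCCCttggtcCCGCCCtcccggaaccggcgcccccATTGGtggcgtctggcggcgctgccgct
Wee2: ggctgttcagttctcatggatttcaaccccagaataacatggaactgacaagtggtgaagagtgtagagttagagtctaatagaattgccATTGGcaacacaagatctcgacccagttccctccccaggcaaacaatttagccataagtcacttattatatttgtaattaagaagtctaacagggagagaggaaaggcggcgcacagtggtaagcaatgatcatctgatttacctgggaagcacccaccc
The Cdc25a window held 2 CCAAT boxes and 2 GC boxes that share a base. The Cdc25b window held 1 CCAAT box and 4 GC boxes, and the Wee2 window held 1 CCAAT box and no GC box. Among all 32851 promoter windows of this length, 33.8% held a CCAAT box and 32.7% a GC box. The element TTTGAA, which lies in promoters of several mitotic genes, was in 16.0% of all windows and in none of these 3, against 2 copies in that of Cdk1 and 1 copy in that of Ccnb2. Of the 10 genes, 7 were matched and searched. These are matches of letters and were not tested as binding sites.

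The groups differed in the number of probes detected. A probe counted as detected where its signal-to-noise ratio reached 3, which held for 4620 to 6798 probes in Ago2-deficient oocytes and for 10650 to 11334 in GV oocytes. The median signal of undetected probes was 145 to 231 in Ago2-deficient oocytes and 70.8 to 83.3 in GV oocytes. The Ago2 probe was detected in no Ago2-deficient oocyte and in 1 GV oocyte, and since nothing places it inside or outside the deleted exons, it is no check of the genotype. Of 11 oocyte markers on the array, 10 were detected in each Ago2-deficient oocyte and 11 in each GV oocyte, with a summed signal of 792300 to 2021000 in Ago2-deficient and 6106000 to 7095000 in GV oocytes. The missing marker was the zona gene Zp2. Of 15 cumulus and granulosa cell markers, 2 to 5 were detected in Ago2-deficient oocytes and 3 to 5 in GV oocytes, at a summed signal of 12350 to 14310 and 4915 to 10950. Among them Btc and Ereg gave a detected signal on every Ago2-deficient array but on no GV array. Inha went the other way, detected on every GV array but on no Ago2-deficient array. Nr5a2 was detected on every GV array and on that of Ago2-deficient replicate 2. The part of these markers in the results was not tested. An equal mass of amplified cDNA from each oocyte was transcribed into labelled cRNA. A value is therefore relative to the rest of the cDNA and is not an amount per oocyte.

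The Cdc25 phosphatases did not move together. Cdc25a was higher in Ago2-deficient oocytes, whereas Cdc25b and Cdc25c fell to or near the background. Values are log2 signals that the authors quantile normalized over the 6 arrays. Cdc25a, which in dividing cells also acts on Cdk2 to start S phase, read 15.05, 15.44 and 15.70 in Ago2-deficient oocytes, against 11.37, 12.11 and 12.35 in GV oocytes. All 6 oocytes had the transcript above the detection limit, and every Ago2-deficient oocyte lay above every GV oocyte. The means were 15.40 ± 0.33 and 11.95 ± 0.51 (SD, n = 3 each), which differed by 3.45 on the log2 scale (standard error 0.40, 95% interval 2.50 to 4.40, adjusted p = 0.000544 from limma), or 10.9-fold. In the signals before scaling, Cdc25a read 9406, 40173 and 30148 in Ago2-deficient oocytes, against 6332, 9199 and 10404 in GV oocytes. On this scale the groups overlapped, since Ago2-deficient replicate 1 lay below GV replicate 3, and the log2 difference was 1.41 (adjusted p = 0.0502 from limma). With arrays scaled to a common median it was 0.31 (adjusted p = 0.665), so the increase of Cdc25a depended on how the arrays were scaled.

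Cdc25b, the phosphatase of meiotic resumption, read 7.56, 8.09 and 7.11 in Ago2-deficient oocytes, against 13.93, 12.71 and 12.79 in GV oocytes. The signal was detected in 1 Ago2-deficient oocyte, replicate 2, at a signal-to-noise ratio of 4.08, and in all 3 GV oocytes at ratios of 58.7 to 71.5. The groups were far apart, with a difference of -5.56 on the log2 scale (standard error 0.48, 95% interval -6.70 to -4.42, adjusted p = 0.000226 from limma). As 2 of the 3 Ago2-deficient signals were under the detection limit, its size is less certain than its direction.

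Cdc25c, the third phosphatase of the family, read 7.17, 6.93 and 7.17 in Ago2-deficient oocytes, against 12.03, 12.66 and 13.05 in GV oocytes. It was detected in no Ago2-deficient oocyte and in every GV oocyte, where the signal-to-noise ratio was 38.1 to 51.6. Because no Ago2-deficient signal was detected, the size of the decrease is uncertain, and a floored fold is given. In it each Ago2-deficient array entered with its lowest detected signal, or with the signal of the probe itself where that was higher. For Cdc25c the probe's own signal was higher on every Ago2-deficient array, so the floored fold is the plain fold. By this measure Cdc25c was 45.0-fold lower (log2 difference -5.49, confidence interval -6.39 to -4.60, adjusted p = 0.000142 from limma). The floored fold ran from 38.2 to 54.4 when single arrays were left out. It is an estimate and not a minimum, since the interval includes smaller decreases. This floored fold and those given for other genes hold for the quantile-normalized values only. Those of Ccnb2, Aurka, Atm and Ppp2ca are likewise plain folds of undetected signals, and only for Ppp2r2b did the floor act. With cyclic loess, another scaling, the log2 differences were -3.23 for Cdc25c and -3.39 for Cdc25b, and both remained called as lower.

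**Figure D1:**
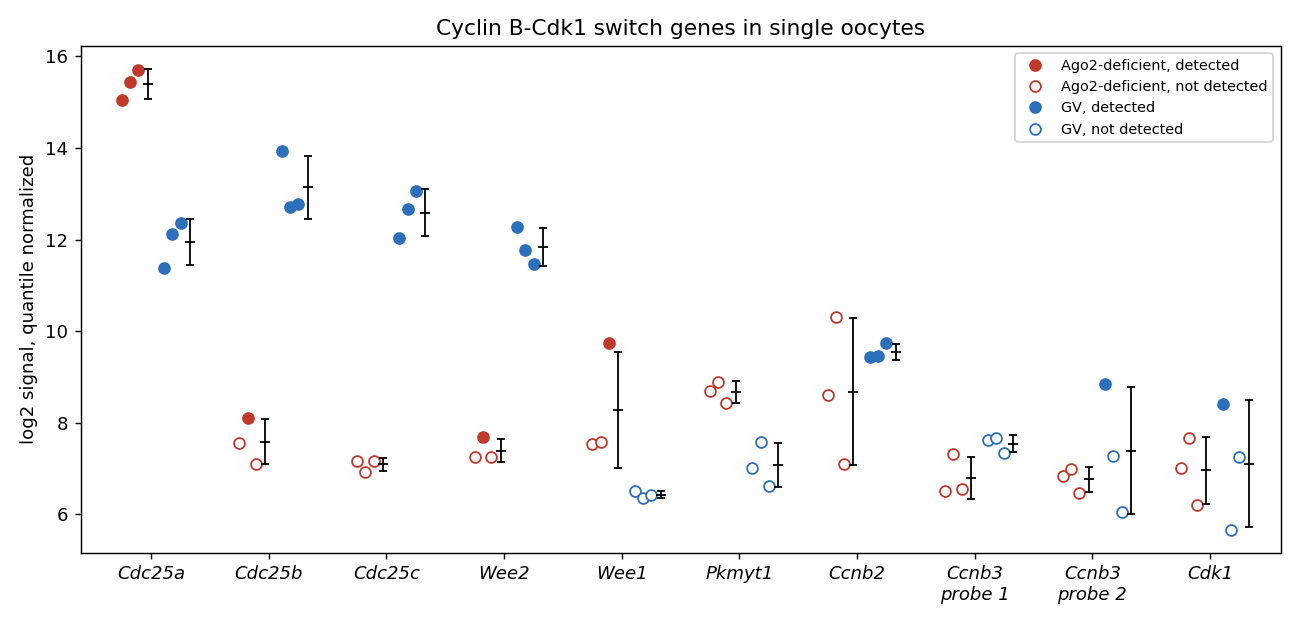
Quantile-normalized log2 signal (vertical axis) of the 10 probes in Ago2-deficient mature oocytes (red, left of each pair) and wild-type GV oocytes (blue, right); circles are single oocytes, filled where the probe was detected and open where it was not, and bars are the mean and SD of 3 oocytes. Red circles lie above blue ones for Cdc25a, Wee1 and Pkmyt1 and far below them for Cdc25b, Cdc25c and Wee2; levels of different probes are not comparable.

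Among the inhibitory kinases the oocyte form fell. Wee2, which keeps Cdk1 inactive in the arrested oocyte and again at egg activation, read 7.25, 7.68 and 7.25 in Ago2-deficient oocytes, against 12.28, 11.77 and 11.47 in GV oocytes. It was detected in 1 Ago2-deficient oocyte, again replicate 2, at a signal-to-noise ratio of 3.80, and in all 3 GV oocytes at 41.7 to 62.6. The log2 difference was -4.45 (standard error 0.36, 95% interval -5.31 to -3.59, adjusted p = 0.000195 from limma), and -2.22 with cyclic loess, where it was still called.

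Wee1, the somatic form, was near the background in both groups. It read 7.53, 7.58 and 9.74 in Ago2-deficient oocytes, against 6.52, 6.35 and 6.43 in GV oocytes. The 3 Ago2-deficient values lay above the 3 GV values, but only replicate 3 was above the detection limit, at a signal-to-noise ratio of 5.27, and no GV oocyte was. As only 1 Ago2-deficient signal and no GV signal was above the limit, no fold is given. Without Ago2-deficient replicate 3 Wee1 was detected on no array. It did not pass the filter on dim probes and was not tested.

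Pkmyt1, a membrane-bound kinase that phosphorylates Cdk1 beside Wee1, was detected on none of the 6 arrays. It read 8.69, 8.90 and 8.44 in Ago2-deficient oocytes, against 7.01, 7.58 and 6.62 in GV oocytes, so that the groups did not overlap although none of the signals was above noise. Its signal-to-noise ratio was at most 0.95 in Ago2-deficient oocytes and at most 1.57 in GV oocytes. No fold is given for Pkmyt1, because both groups were under the detection limit. If every probe on the array was tested regardless of detection, Pkmyt1 was called higher (adjusted p = 0.0460 from limma), as were 5.26% of all genes, and the higher signal of undetected probes in Ago2-deficient oocytes stands beside this call. The part of that signal in the call was not tested.

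**Figure D2:**
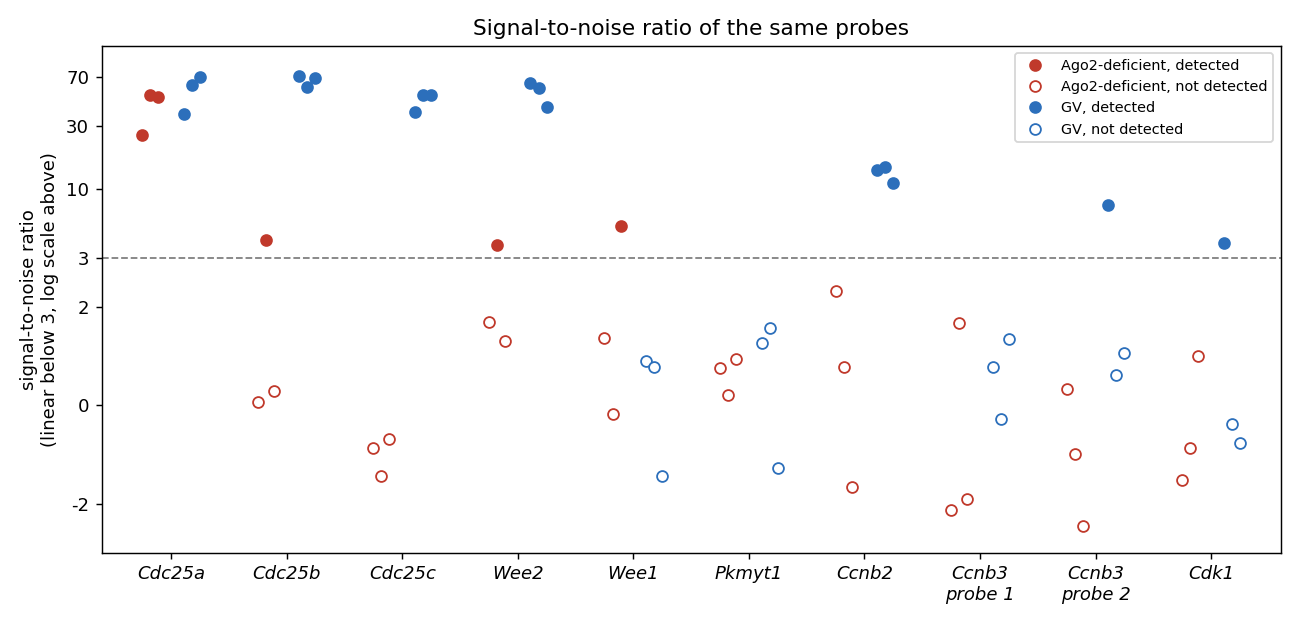
Signal-to-noise ratio (vertical axis, linear below 3 and logarithmic above) of the same 10 probes in Ago2-deficient (red, left) and GV oocytes (blue, right), with the detection limit of 3 as a dashed line. Cdc25a alone is above the line in all 3 Ago2-deficient oocytes, while Cdc25a, Cdc25b, Cdc25c, Wee2 and Ccnb2 are above it in all 3 GV oocytes.

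Transcripts of Ccnb2, Ccnb3 and Cdk1 were detected in no Ago2-deficient oocyte. Ccnb2, encoding cyclin B2, read 8.61, 10.32 and 7.11 in Ago2-deficient oocytes, against 9.43, 9.45 and 9.74 in GV oocytes. The GV oocytes had an SD of 0.17, whereas the Ago2-deficient oocytes, with an SD of 1.61, lay on both sides of them. Ccnb2 was above the detection limit in every GV oocyte and under it in every Ago2-deficient oocyte, although Ago2-deficient replicate 2 had a signal of 1048, similar to the 862 to 1066 of the GV oocytes, with a signal-to-noise ratio of 0.79. The log2 difference of -0.86 was within the spread (confidence interval -2.73 to 1.01, adjusted p = 0.365 from limma). Its floored fold was 1.82 lower, which is not a minimum, since the interval includes an increase. Single oocytes moved this value both ways. Without Ago2-deficient replicate 2 Ccnb2 was called lower at -1.68 (adjusted p = 0.0360), and the floored fold was 3.21. Without Ago2-deficient replicate 3 the difference was -0.079 (adjusted p = 0.909), and the floored fold was 1.06. The direction turned with cyclic loess, where the difference was 0.75 (adjusted p = 0.268), and under a common median Ccnb2 was called lower (-2.38).

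Cdk1, the kinase itself, had signal-to-noise ratios of -1.53 to 1.01, under the detection limit, in every oocyte except GV replicate 1. It read 7.01, 7.68 and 6.21 in Ago2-deficient oocytes, against 8.41, 5.67 and 7.24 in GV oocytes, and was detected only in GV replicate 1, at a signal-to-noise ratio of 3.93. The groups overlapped and the probe was not tested, so a change of Cdk1 mRNA was not detectable here. Ccnb3, which encodes cyclin B3 of the meiotic divisions, had 2 probes. The first was detected in no oocyte and ranged from 6.50 to 7.32 in Ago2-deficient and from 7.33 to 7.67 in GV oocytes, which left the groups apart on this scale, while they overlapped in the signals before scaling. The second averaged 6.76 ± 0.28 in Ago2-deficient and 7.39 ± 1.39 in GV oocytes (SD, n = 3 each), and was detected only in GV replicate 1, at a signal-to-noise ratio of 7.53. The single detections of Cdk1 and Ccnb3 thus came from the same GV oocyte. It also had the highest Cdc25b and Wee2 values and the lowest Cdc25a and Cdc25c values of the GV group. Its array had the most detected probes of the group (11334, against 10687 and 10650) and the single detection of Ago2.

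Of the 9 genes measured, 5 were detected in all 3 oocytes of a group and were tested, and the other 4, Cdk1, Ccnb3, Wee1 and Pkmyt1, did not pass this filter. Calls required a Benjamini-Hochberg p below 0.05 together with a change of more than 2-fold. Among the 5 tested genes, 1 was called higher (Cdc25a) and 3 were called lower (Cdc25b, Cdc25c and Wee2). Over all 7915 tested genes, 17.4% were called higher and 44.8% were called lower. Among the tested members the groups did not overlap in these same 4, 1 higher and 3 lower, compared with 20.2% higher and 50.3% lower over all tested genes. The median log2 difference was -4.45 for the 5 members and -1.39 for all tested genes. A filter that takes a gene through its GV values alone favours decreases, and 32.8% of the tested genes were detected in no Ago2-deficient oocyte. Placed among all tested genes, the change of Cdc25a was above that of 94.97% of them. No such rank is given for Cdc25b, Cdc25c and Wee2, because their Ago2-deficient signals were mostly under the detection limit.

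The scaling between arrays set the balance of the comparison. Of all calls, 28.0% were increases on the quantile-normalized values, compared with 43.7% under cyclic loess, 11.3% with no scaling and 4.76% after scaling to a common median. The median of all tested genes moved between -3.08 with a common median and -0.36 with cyclic loess. Cdc25b, Cdc25c and Wee2 were called lower under all 5 scalings, with log2 differences from -7.34 to -3.39, from -7.18 to -3.23 and from -6.11 to -2.22. The difference of Cdc25a was above the median of all tested genes under each scaling. Cdc25b, Cdc25c and Wee2 are not placed against that median, because they passed the filter through their GV values alone.

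**Figure D3:**
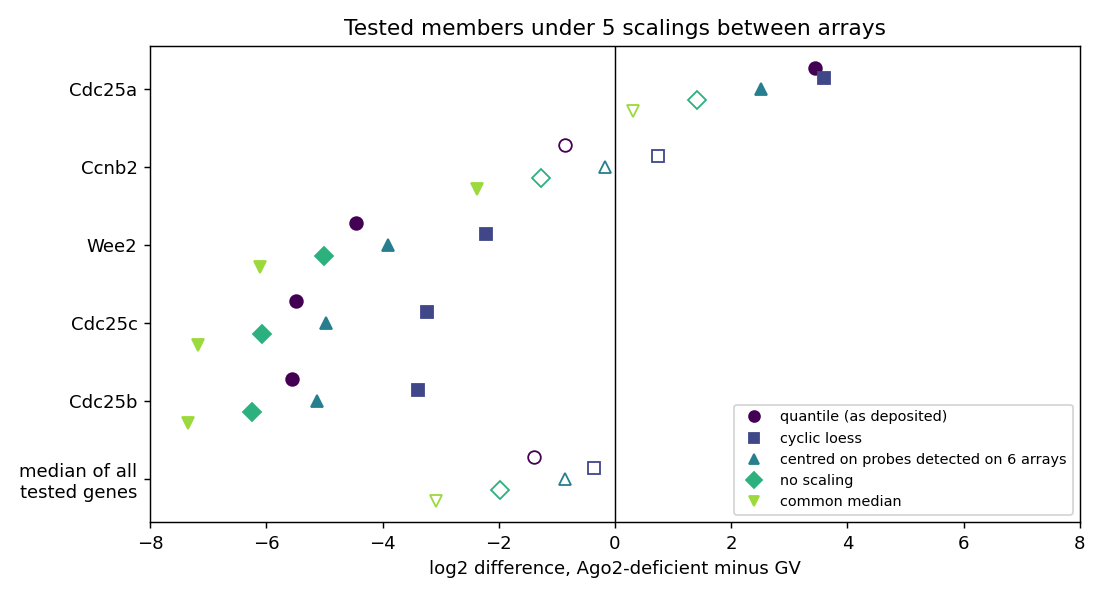
Log2 difference, Ago2-deficient minus GV (horizontal axis), of the 5 tested member genes and of the median of all tested genes under 5 ways of scaling the arrays; filled symbols are called, open symbols are not, and the medians were not tested. Cdc25b, Cdc25c and Wee2 stay left of 0 under every scaling, Cdc25a lies between 0.31 and 3.60, and Ccnb2 crosses 0.

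The changes of members with opposed or shared roles were set against each other within arrays. A factor that multiplies a whole array cancels in the difference of 2 genes on it. Quantile normalization and cyclic loess do not apply a single factor to an array, so a gap still depends on the scaling. A background added to the signals does not cancel either. Gaps are from the quantile-normalized values unless another scaling is named. Of 7 planned pairs, 5 could be formed without Ccnb1. The change of Cdc25a exceeded that of Cdc25b by 9.01 on the log2 scale, and the groups were apart (p = 0.1 in a two-sided exact permutation test, which is the floor for 3 against 3, adjusted p = 0.125 over the 5 pairs). This gap was 7.65 with no scaling and 6.99 with cyclic loess. The changes of Cdc25c and Cdc25b differed by 0.07 (exact permutation p = 0.9), and the gap ran from -0.60 to 0.48 when single arrays were left out. The change of Wee2, which opposes Cdc25b, was above that of Cdc25b by 1.11 (exact permutation p = 0.1, adjusted p = 0.125), although both genes fell. In Ago2-deficient oocytes Cdc25b and Wee2 were under the detection limit in 2 of 3 oocytes and Cdc25c in 3 of 3, so the sizes of all 3 gaps depend on the background, and those of Cdc25c and Wee2 with Cdc25b do not show whether the changes were alike. The pairs of Wee1 and of Pkmyt1 with Wee2 are given no value, because nearly all signals of Wee1 and all signals of Pkmyt1 were under that limit.

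Genes with the most similar pattern were sought for each called member among 4563 tested genes with a symbol, by the root mean square distance of the log2 values over the 6 oocytes after each gene was centred on its mean. For Cdc25a these were Smc6, a subunit of the Smc5/6 chromosome complex (distance 0.16), and Zc3h15, a CCCH zinc finger gene (0.20), with log2 differences of 3.50 and 3.53. For Cdc25b they were Ginm1 (0.33) and Puf60, a splicing factor (0.34). For Cdc25c they were Krr1, a ribosome assembly factor (0.27), and Gtf3c6, a subunit of transcription factor IIIC (0.29), and for Wee2 they were Imp3, a component of the U3 nucleolar ribonucleoprotein (0.23), and Txndc15 (0.23). The genes named for Cdc25b, Cdc25c and Wee2 had log2 differences of -5.48 to -4.82, and these members were mostly undetected in Ago2-deficient oocytes. With 6 values a gene, such distances mainly reflect the difference between the groups. Shared regulation was not tested.

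Around cyclin B-Cdk1, a list of 65 genes by role was examined, of which 51 were on the array and 27 were tested. Of these, 3 were called higher and 14 were called lower, beside the 17.4% and 44.8% of all tested genes, and the median log2 difference was -1.48 against -1.39 for all tested genes. The split moved with the scaling, with 6 higher and 10 lower under cyclic loess and 0 higher and 24 lower under a common median.

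Of 6 Polo and Aurora A genes on the array 2 were tested, Aurka and Plk1, and both were called lower, as were 44.8% of all tested genes. Aurka, encoding Aurora A, which activates Polo kinase, averaged 6.43 ± 0.34 in Ago2-deficient oocytes and 10.51 ± 0.18 in GV oocytes (SD, n = 3 each). It was detected in no Ago2-deficient oocyte and was 16.8-fold lower by the floored fold (adjusted p = 0.000202 from limma). With cyclic loess its log2 difference was -2.53. Plk1, the Polo kinase that turns on Cdc25 and marks Wee1 for degradation, averaged 14.96 ± 0.61 in Ago2-deficient oocytes and 16.17 ± 0.15 in GV oocytes, a log2 difference of -1.21 (adjusted p = 0.0357). Its call was lost in 5 of the 6 fits that left out 1 array (adjusted p = 0.0525 to 0.121), all except that without Ago2-deficient replicate 3. Cdk7, the catalytic subunit of the CDK-activating kinase, was lower by -2.55 and was detected in only 1 Ago2-deficient oocyte. It was not called once arrays were centred on probes that all 6 of them detected (-1.36, adjusted p = 0.104 from limma). Its partner Mnat1 was not called at 0.33, but was called lower under a common median (-1.80) and higher under cyclic loess (1.79). Cks2, a small subunit that docks on Cdk1, was lower by -1.99 and was called under all 5 scalings, while its relative Cks1b, detected in only 1 Ago2-deficient oocyte, was not called at -2.07 (adjusted p = 0.123) or under cyclic loess (-0.59), but was called lower under the other 3 scalings (-4.54 to -2.33). Ccna2, encoding cyclin A2, was lower by -1.77 and was detected in only 1 Ago2-deficient oocyte. It was not called without GV replicate 1 (-1.53, adjusted p = 0.0571 from limma) or with centring, and it turned to 0.14 with cyclic loess. Atm, a DNA damage kinase, was 5.44-fold lower by the floored fold and lost its call with centring (-0.90, adjusted p = 0.346).

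The phosphatase PP2A opposes Cdk1, and the Greatwall substrates Arpp19 and Ensa inhibit it. Of 8 genes of this group on the array 4 were tested, and these 4 were called lower, as were 44.8% of all tested genes. Each was detected in no Ago2-deficient oocyte and so passed the filter through its GV values alone. Arpp19 (-1.48) and the scaffold subunit Ppp2r1a (-1.77) were not called with cyclic loess (0.03 and -0.91) or with centring, and Arpp19 was not called without GV replicate 1 (adjusted p = 0.0652) or GV replicate 3 (adjusted p = 0.0511). The other 2 kept their calls under the 5 scalings. The catalytic subunit Ppp2ca was 10.4-fold lower by the floored fold (adjusted p = 0.000472 from limma). The regulatory subunit Ppp2r2b was 19.6-fold lower by the floored fold (adjusted p = 0.00416). This fold was 11.7 without Ago2-deficient replicate 1 and 30.5 without Ago2-deficient replicate 3. With cyclic loess the log2 differences were -1.58 for Ppp2ca and -2.64 for Ppp2r2b. Of 3 tested 14-3-3 genes, whose proteins hold phosphorylated Cdc25 inactive, Ywhaz was lower by -1.64 and Ywhae differed by -0.67 (adjusted p = 0.0890), and was called lower under a common median (-2.81) or unscaled (-1.71). Ppp1cb, a catalytic subunit of PP1, was not called at -0.14, was called lower under a common median (-3.10) as well as unscaled (-1.999), and turned to 0.85 under cyclic loess. In protein kinase A, which keeps Wee2 active and Cdc25b inactive in the arrested oocyte, the regulatory subunit Prkar2b was lower by -1.77. It was detected in only 1 Ago2-deficient oocyte. The call was lost under cyclic loess and with centring, and in 5 of the 6 fits without 1 array (adjusted p = 0.0642 to 0.0991 from limma). Of these fits only that without Ago2-deficient replicate 3 kept it, at -2.39. Prkar1a was not called at -1.24 (adjusted p = 0.0957) and was called lower without Ago2-deficient replicate 3 (-1.75) and under a common median (-4.48), no scaling (-3.38) and centring (-2.27).

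Of 6 tested genes of cyclin B turnover, 2 were called higher, 2 lower and 2 were not called. Over all tested genes 17.4% were called higher and 44.8% lower. Fbxo5 (Emi1), an inhibitor of the anaphase-promoting complex, averaged 17.79 ± 0.37 in Ago2-deficient oocytes and 14.21 ± 0.65 in GV oocytes, a difference of 3.58 (adjusted p = 0.000709 from limma) that was not called with arrays scaled to a common median (0.90). Ube2c, a ubiquitin-conjugating enzyme of that complex, was higher by 1.72, was not called with no scaling (0.86), and turned to -0.24 with a common median. The CDK inhibitor Cdkn1c was higher by 2.03, lost its call without GV replicate 1 (1.79, adjusted p = 0.0541) and with no scaling (0.30), and turned to -0.81 with a common median. Fzr1 (Cdh1), the activator of the complex that keeps cyclin B low in GV oocytes, was lower by -2.93 (adjusted p = 0.00112), and Skp1, a subunit of SCF ubiquitin ligases, by -3.83 (adjusted p = 0.00134), and both were called under all 5 scalings. Cdc20, the other activator, differed by -0.15 (adjusted p = 0.748), and was called lower under a common median (-3.43), with no scaling (-2.33) and with centring (-1.22).

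**Figure D4:**
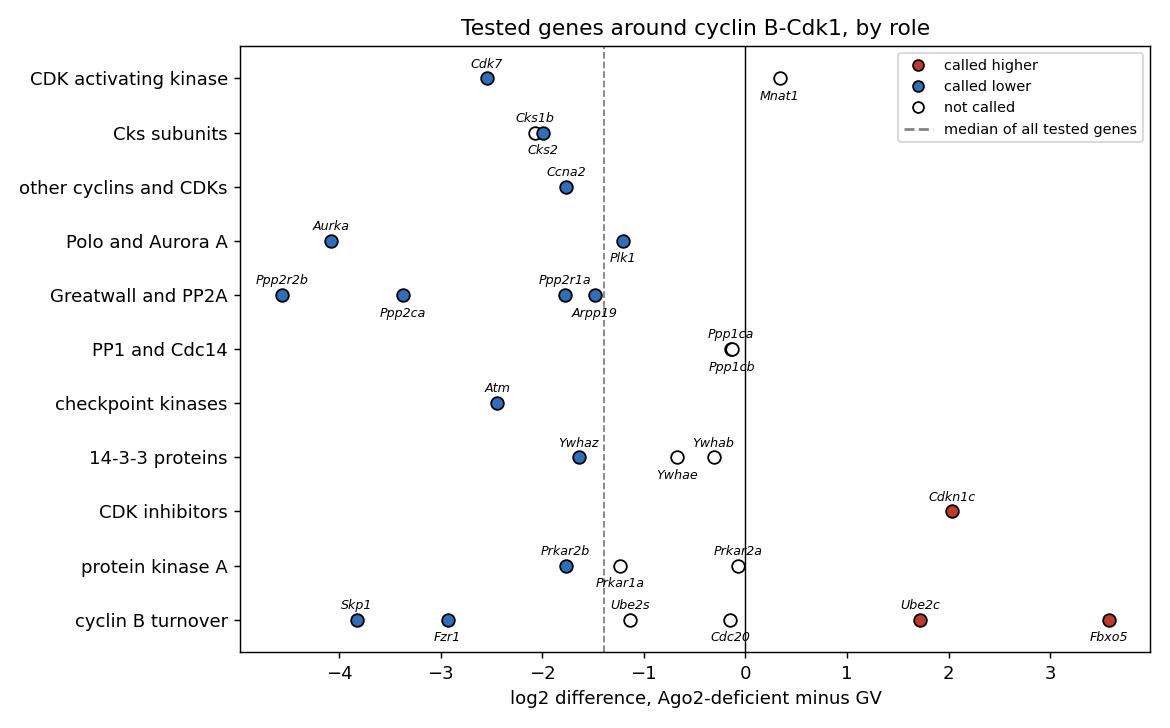
Log2 difference, Ago2-deficient minus GV (horizontal axis), of the 27 tested genes around cyclin B-Cdk1, in rows by role, on the quantile-normalized values; red circles are called higher, blue circles called lower and open circles not called, with the median of all tested genes, -1.39, as a dashed line. The 3 red circles are Cdkn1c, Ube2c and Fbxo5, of which Cdkn1c and Ube2c turn negative under a common median.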

How the data were processed

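Single oocytes were lysed, and their amplified cDNA was transcribed into cRNA labelled with digoxigenin. The authors hybridized this cRNA to 1-colour chemiluminescent Applied Biosystems mouse arrays. The authors deposited for each probe the scanned signal intensity, a score of signal over noise and a flag code, and in a series table the deposited log2 values after quantile normalization of the 6 arrays. Of the probes, 14411 carried 1 symbol, 247 several and 18354 none. The fit took the log2 values of 8018 probes that either group detected in all 3 oocytes, and used lmFit and eBayes of limma 3.58.1 (R 4.3.3) and adjusted by Benjamini and Hochberg over them. A gene counted once, by its tested probe with the highest mean. The fit was tested on simulated data. No replicate block was used, since the labels give no animal or day shared by a replicate number. Deviations did not pair by that number either (r = -0.049, 0.028 and -0.034). Precision is limited by the number of arrays, and p-values cover the spread among these oocytes alone, which may be technical. Genes named were all members and, by role, up to 2 called each way with the largest change and 1 not called, and Arpp19 and Ppp2r1a were added after their values were seen. Members, lists and tests were chosen with earlier results of these data known. Alternatives covered scaling, filter, detection limit, variance model, thresholds, replicate block and each array left out. Figures used matplotlib 3.10.9 (Python 3.11.15).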

Additional observations from a re-analysis of the deposited data

Results flagged for a closer look

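Wee1 was left out of the test because it was not detected in all 3 oocytes of either group. Its probe nevertheless had a signal-to-noise ratio of 5.27 in Ago2-deficient replicate 3, above the limit of 3, and at most 0.91 in GV oocytes.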

How the results depend on the processing

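Cdc25b, Cdc25c and Wee2 were called lower under every alternative that tested them, all except the filter to probes detected on all 6 arrays, which left 1 member (Cdc25a) tested, 0 lower members and, around the switch, 3 lower genes, and 543 lower genes over all. With arrays scaled to a common median Cdc25a was not called (0.31), Ccnb2 was called at -2.38, 0 members were higher, 0 genes of the wider list were higher and 24 lower, and over all genes 311 were higher and 6223 lower. With no scaling Cdc25a was 1.41 and not called, 0 members and 1 gene of the wider list were higher, as were 609 of all genes. With cyclic loess Ccnb2 reversed to 0.75, and 6 genes of the wider list were higher. Without a filter 2 members were higher, the second being Pkmyt1. Leaving out 1 array gave Ccnb2 values of -1.68 to -0.079 and moved the Cdc25c change minus the Cdc25b change between -0.60 and 0.48, and kept the calls of the 4 called members. With the replicate block 1 member was higher and 3 were lower, as without it, and 1291 of all genes were higher and 3384 lower, against 1378 and 3543. Signals at or under the detection limit in Ago2-deficient oocytes limit the size of each decrease.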
